A study of Arabidopsis thaliana with 8 samples.

Results

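NDB2 (AT4G05020), AT2G21640 (UPOX), AT5G51440 (HSP23.5) and AT5G09570 (AT12CYS-2) are 4 nuclear genes of Arabidopsis thaliana whose transcripts are used as markers of mitochondrial stress. They were chosen by their probe sets, with earlier results of these data known. Each has 1 probe set, which lists it alone, and they are 4 of the 13286 genes that could be named in this way. Total RNA of whole Col-0 wild-type seedlings, aged 4 days and grown at 21 °C on half-strength Murashige Skoog medium with 1% sucrose, had been hybridised to 8 Affymetrix arrays. The 4 groups, of 2 arrays each, were the red lincomycin group (lincomycin in the medium, 30 min of red light before collection), the dark lincomycin group (lincomycin, darkness throughout), the red group (30 min of red light, no lincomycin) and the dark group (darkness, no lincomycin). All 4 groups were raised in darkness. Lincomycin blocks protein synthesis on plastid ribosomes; its dose is given as 220 µg/ml in the treatment description and as 200 µg/ml in the source names, and which applied is not known. The seedlings were taken whole, so a change in the number of cells that express a gene and a change of RNA per cell cannot be told apart. Nothing in the labels says that the 2 arrays of a group came from separate cultures, and p-values then measure only the spread between these arrays, which may be technical.

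Plant mitochondria that fail to respire normally signal to the nucleus, and membrane-bound NAC transcription factors, among them ANAC013 and ANAC017, raise a set of nuclear genes in return. NDB2 encodes a type II NAD(P)H dehydrogenase on the outer face of the inner mitochondrial membrane that passes electrons to ubiquinone without pumping protons, and so can bypass complex I together with an alternative oxidase. UPOX was named for its rise under oxidative stress, HSP23.5 is a small heat shock protein of mitochondria, and AT12CYS-2 is a small mitochondrial protein with a twin CX9C arrangement of cysteines. The comparisons asked whether blocking plastid translation, or a short exposure to red light in seedlings that had seen none, was accompanied by a change of these markers.

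On lincomycin, UPOX and HSP23.5 stood about 1.5-fold higher than without it and NDB2 1.31-fold higher, as means over both light states, whereas AT12CYS-2 stood at 1.00-fold. None of the 4 genes passed the test in any of the 7 comparisons made (limma, with p adjusted by Benjamini-Hochberg across 22746 probe sets and a threshold of 0.05). The highest level of NDB2 lay in the dark lincomycin group, and the highest levels of UPOX and HSP23.5 in the red lincomycin group. For lincomycin as the mean of both light states, where 0 of the 4 were called against 0.897% of all probe sets, 3 of the 4 had an unadjusted p under 0.05, against 16.8% of all probe sets. The median log2 change of the 4 genes in that comparison was 0.49, and that of all probe sets -0.01. Since the genes were chosen with earlier results of these data known, such counts and medians, here and below, describe them and give no independent support.

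Over all probe sets, replicate arrays were closer in both lincomycin groups than in the groups without it: 1549 probe sets differed over 2-fold between the 2 dark arrays and 797 between the 2 red arrays, against 40 for dark lincomycin and 9 for red lincomycin. The 4 genes did not all follow this: AT12CYS-2 had its largest gap between replicates in the red lincomycin group (1.41-fold), and the UPOX replicates differed by 1.16-fold there and by 1.06-fold in the red group. The limma fit used 1 spread per probe set for all 4 groups, so the SE of a comparison also takes in the spread of groups outside it. Replicate 1 of the dark group also had a 41.2-fold ratio of the 3' to the 5' actin control probe sets, a measure of RNA degradation, where the remaining 7 arrays ran from 2.24-fold to 3.67-fold. The effects on NDB2, UPOX and HSP23.5 that moved by over 1.5 times without this array are given both ways. The list medians and the values of NDB3, CLPP2 and AT5G37670 were not recomputed without it.

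**Figure D1:**
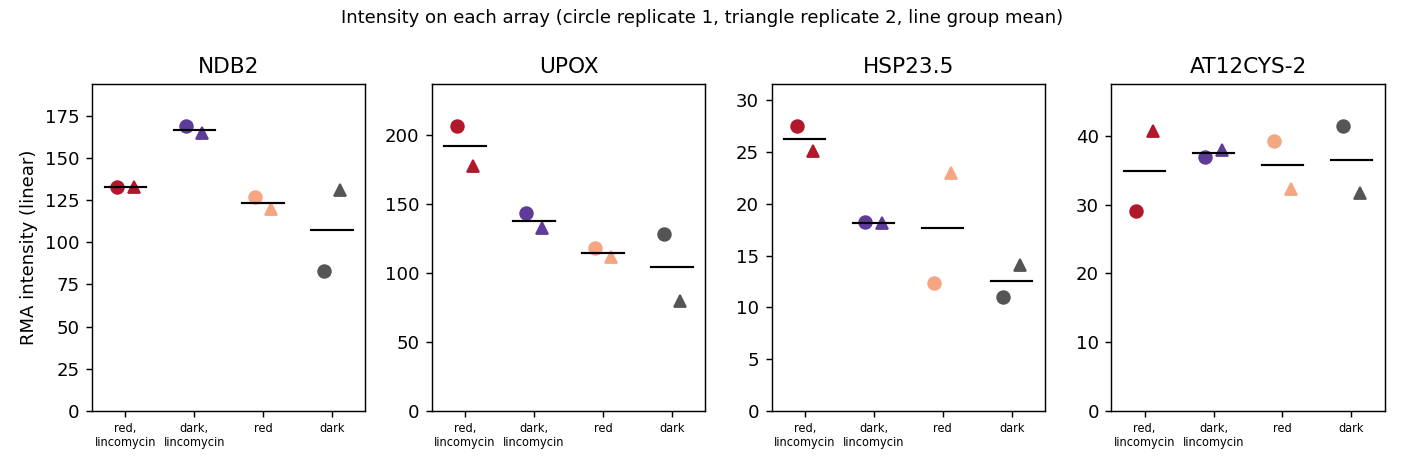
Intensity (linear RMA scale, y axis from 0) of the 4 genes on each array, by group, with replicate 1 as a circle, replicate 2 as a triangle and the group mean as a line. NDB2 and UPOX on the 4 lincomycin arrays lie above all 4 arrays without lincomycin, HSP23.5 overlaps through replicate 2 of the red group (23.0), and AT12CYS-2 shows no separation.

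NDB2, the alternative dehydrogenase, had intensities of 133 and 133 in the red lincomycin group and 169 and 165 in the dark lincomycin group, against 127 and 120 in the red group and 83.2 and 131 in the dark group. All 4 lincomycin arrays lay above all 4 arrays without lincomycin, though the lowest lincomycin array (133) and the highest array without it (131) nearly touched. Such a separation upwards was found for 4.35% of all probe sets. The change on lincomycin was 0.68 ± 0.21 in darkness (log2, SE of the fit, 1.60-fold, adjusted p = 0.157) and 0.11 ± 0.21 after red light (adjusted p = 0.937), and 0.39 ± 0.15 as the mean of both (adjusted p = 0.255).

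The difference between these lincomycin effects, which is the interaction of light and lincomycin, was -0.57 ± 0.30 for NDB2 with a 95% interval of -1.28 to 0.13 (adjusted p = 0.566). It was -0.25 (adjusted p = 0.604) without dark replicate 1 and -0.90 (adjusted p = 0.0633) without dark replicate 2. With all arrays the interval reached from a much smaller lincomycin effect after red light to a slightly larger one. Red light itself left NDB2 at -0.33 ± 0.21 on lincomycin, where both red arrays lay below both dark arrays, as they did for 22.9% of all probe sets. Without lincomycin the value was 0.24 ± 0.21 (adjusted p = 0.663), or -0.08 without dark replicate 1, and the dark arrays lay on both sides of the red ones. As the mean of both media red light gave -0.04 ± 0.15 (adjusted p = 0.986), or -0.21 without dark replicate 1. In order of level, dark lincomycin came first, then red lincomycin, red and dark, and no neighbours in that order differed beyond their spread by the test. The 1.57-fold gap between the 2 dark arrays was larger than any of the steps between neighbouring groups.

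The NDB2 values moved with that gap. The array whose actin ratio was high, dark replicate 1, was the lowest of the 8 for NDB2 (83.2). Without it the change on lincomycin in darkness was 0.35 (adjusted p = 0.248) and the mean of both light states 0.23 (adjusted p = 0.244). Without replicate 2 of the dark group they were 1.01 (adjusted p = 0.0144) and 0.56 (adjusted p = 0.0304), both past the threshold, with the lone dark array assumed to vary like the other groups. Leaving out that array also raised the number of called probe sets, to 1950 in darkness against 223 with all arrays, and to 1106 against 204 for the mean.

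UPOX, the gene named for its response to oxidative stress, had intensities of 206 and 177 in the red lincomycin group and 143 and 132 in the dark lincomycin group, against 118 and 111 in the red group and 128 and 79.7 in the dark group. The lincomycin arrays (132 to 206) again lay above all arrays without it (79.7 to 128). The change on lincomycin was 0.73 ± 0.23 after red light (1.66-fold, adjusted p = 0.425) and 0.44 ± 0.23 in darkness (1.36-fold, adjusted p = 0.363). As the mean of both light states it was 0.59 ± 0.16 (1.50-fold, 95% interval 1.16-fold to 1.96-fold, unadjusted p = 0.00766, adjusted p = 0.138), the smallest adjusted p of the 28 tests of these genes.

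The red lincomycin arrays were the 2 highest for UPOX. Red light on lincomycin gave 0.47 ± 0.23, an adjusted p that rounds to 1, with both red arrays above both dark ones, as for 21.7% of all probe sets. Without lincomycin it gave 0.18 ± 0.23 (adjusted p = 0.774), or 0.52 without dark replicate 1, with the red arrays between the 2 dark ones. As the mean of both media red light gave 0.33 ± 0.16 (adjusted p = 0.698), or 0.50 without dark replicate 1. The interaction was 0.29 ± 0.32 (95% interval -0.47 to 1.05, adjusted p = 0.834), or -0.05 without dark replicate 1 and 0.63 without dark replicate 2, so it was not shown that light acted differently on the 2 media. In order of level the groups ran red lincomycin, dark lincomycin, red and dark. The first pair and the last pair of neighbours did not pass the test, and dark lincomycin against red, whose arrays did not overlap (143 and 132 against 118 and 111), was not tested.

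UPOX and NDB2 depended on the 2 dark arrays in opposite ways. Replicate 1 of the dark group, the lowest array for NDB2, was the highest array without lincomycin for UPOX (128), and replicate 2 was the lowest of all 8 (79.7). Without replicate 1 the mean lincomycin effect on UPOX was 0.76 and passed the threshold (adjusted p = 0.0332, with 551 probe sets called), and in darkness alone it was 0.79 (adjusted p = 0.0742). Without replicate 2 these were 0.42 (adjusted p = 0.0812) and 0.10 (adjusted p = 0.783). The lincomycin effect after red light, which uses neither dark array, was 0.73 with either left out (adjusted p = 0.131).

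HSP23.5, the mitochondrial small heat shock protein, gave the dimmest signal of the 4 relative to its arrays. Its intensities were 27.5 and 25.1 in the red lincomycin group and 18.2 and 18.1 in the dark lincomycin group, against 12.3 and 23.0 in the red group and 11.0 and 14.1 in the dark group. The 25th percentile of all probe sets ran from 11.8 to 13.5 over the 8 arrays, so HSP23.5 lay close to it on 3 of the arrays without lincomycin. The table holds no detection calls, and whether the gene was above background there is not known. Its change on lincomycin was 0.65 ± 0.29 after red light (adjusted p = 0.614) and 0.54 ± 0.29 in darkness (adjusted p = 0.383, or 0.36 without dark replicate 1), and 0.59 ± 0.20 as the mean of both (1.51-fold, 95% interval 1.08-fold to 2.10-fold, adjusted p = 0.211).

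The lincomycin arrays of HSP23.5 (18.1 to 27.5) overlapped with those without it (11.0 to 23.0) through 1 array, replicate 2 of the red group. Without that array the mean lincomycin effect was 0.82 and passed the threshold (adjusted p = 0.0369, with 756 probe sets called). Without replicate 1 of the red group it was 0.37 (adjusted p = 0.298), and the effect after red light alone 0.20. For each of NDB2, UPOX and HSP23.5, then, the mean lincomycin effect passed when 1 of the 8 arrays was left out, and that array was the highest of the 4 without lincomycin for that gene.

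HSP23.5 also stood higher after red light on both media, at 0.54 ± 0.29 on lincomycin and 0.43 ± 0.29 without it (adjusted p = 0.559, or 0.25 without dark replicate 1). The mean of both media was 0.48 ± 0.20, a 1.40-fold difference with unadjusted p = 0.0484 and adjusted p = 0.625, where 7.94% of all probe sets had an unadjusted p under 0.05 and 0.299% were called. It was 0.25 without red replicate 2 (adjusted p = 0.537) and 0.71 without red replicate 1 (adjusted p = 0.172). On lincomycin the red arrays (27.5 and 25.1) lay above the dark ones (18.2 and 18.1), and without it 1 red array did not. Without replicate 2 of the red group the light effect without lincomycin turned to -0.03. The order of the groups was red lincomycin, dark lincomycin, red and dark. Neither the first nor the last pair of neighbours passed the test, and dark lincomycin against red, whose arrays overlapped, was not tested. The interaction was 0.11 ± 0.40 (adjusted p = 0.964), or 0.29 without dark replicate 1.

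AT12CYS-2, the twin CX9C protein, had intensities of 29.0 and 40.7 in the red lincomycin group and 37.0 and 37.9 in the dark lincomycin group, against 39.2 and 32.2 in the red group and 41.4 and 31.7 in the dark group. The lowest and the highest of the 8 arrays, 29.0 and 41.4, belonged to a red lincomycin and a dark array, and every pair of groups overlapped. The mean lincomycin effect was -0.00 ± 0.15, with a 95% interval of 0.778-fold to 1.28-fold. That interval reflects only the spread between these arrays, so a larger change could still have been missed. Red light gave -0.08 ± 0.15 as the mean of both media (0.739-fold to 1.22-fold, adjusted p = 0.965). By light or by medium alone the changes ran between -0.12 and 0.05, and no neighbours in the order of its group means (dark lincomycin, dark, red, red lincomycin) differed beyond their spread.

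**Figure D2:**
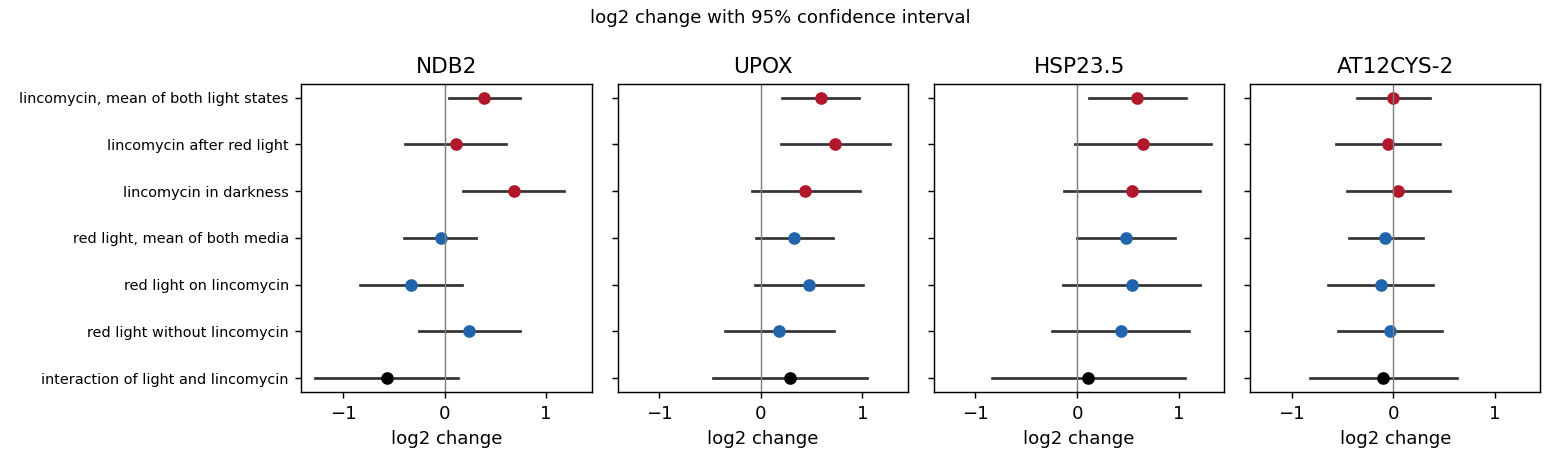
Fitted log2 change (x axis, dot) with its 95% confidence interval (line) for the 4 genes in the 7 comparisons (y axis), with lincomycin effects in red, light effects in blue and their interaction in black. The intervals of the mean lincomycin effect lie above 0 for NDB2, UPOX and HSP23.5 and span 0 for AT12CYS-2, before adjustment over all probe sets.

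The other comparisons in which 0 of the 4 genes were called had few calls in all. The called share was 0.98% of probe sets for lincomycin in darkness, 0.0264% for lincomycin after red light, 0.189% for red light without lincomycin, 0.0615% for red light on lincomycin and 0% for the interaction. For lincomycin in darkness 1 of the 4 genes had an unadjusted p under 0.05 (NDB2, against 18.1% of all probe sets). For lincomycin after red light 1 did so (UPOX, against 8.33%). For red light 0 did so without lincomycin (14.3% of all) or on it (3.85%), nor did any for the interaction (10.4%). As the median of the 4 genes, the log2 change was 0.49 for lincomycin in darkness and 0.38 after red light, 0.21 for red light without lincomycin and 0.17 on it, beside medians of all probe sets between -0.01 and 0.

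In darkness, NDB2, UPOX and HSP23.5 lay higher on both lincomycin arrays than on both arrays without it, as did 23.1% of all probe sets, and 0 of the 4 genes lay lower (25.6% of all). After red light the same 3 genes lay higher on lincomycin (19.4% of all) and 0 lower (20.5% of all). Red light without lincomycin separated 0 of the 4 genes upwards (16.9% of all) or downwards (18.2% of all). Red light on lincomycin separated UPOX and HSP23.5 upwards (21.7% of all) and NDB2 downwards (22.9% of all). Over both media, with 4 arrays on each side, red light separated 0 of the 4 genes, against 1.56% of all probe sets upwards and 1.44% downwards.

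**Figure D3:**
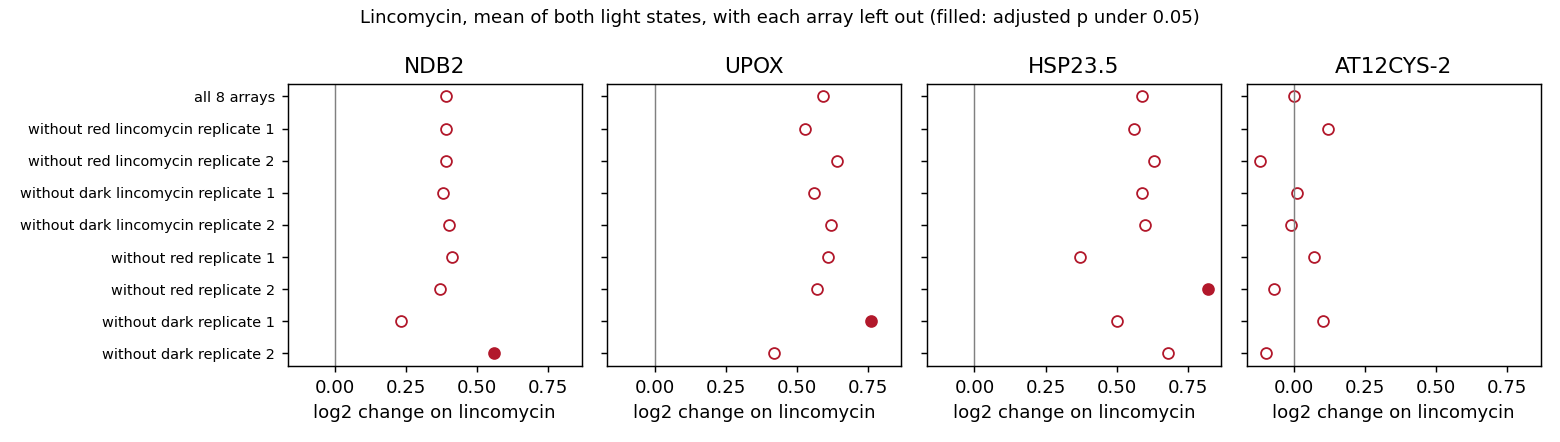
Mean lincomycin effect on the 4 genes (log2 change, x axis) with all 8 arrays and with each array left out in turn (y axis), filled where the adjusted p is under 0.05. NDB2 is filled without dark replicate 2 (0.56), UPOX without dark replicate 1 (0.76) and HSP23.5 without red replicate 2 (0.82).

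A wider list of genes that respond to mitochondrial dysfunction held 27 genes, the 4 above among them, and 12 could be measured with a probe set that lists 1 gene. On lincomycin as the mean of both light states, 1 of the 12 was called higher and 0 lower, where 0.897% of all probe sets were called. An unadjusted p under 0.05 was found for 6 of the 12 and for 16.8% of all probe sets, and 10 of the 12 were above 0, as were 47.2% of all. NDB2, UPOX and HSP23.5, already counted above, were among those 6 and among those 10. The list, too, was chosen with earlier results of these data known. The median change of the list was 0.37. The called member was AT2G04050, a transporter of the MATE efflux family, with 148 and 197 in the red lincomycin group and 156 and 158 in the dark lincomycin group, against 27.2 and 44.1 in the red group and 49.0 and 23.3 in the dark group. It rose by 2.26 ± 0.27 (adjusted p = 0.019), or by 2.53 without dark replicate 1. Its groups stood far apart on every array, in darkness (2.22, adjusted p = 0.0515) as after red light (2.30, adjusted p = 0.144), although neither single comparison passed.

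The call of AT2G04050 was kept under 8 of 13 other settings. It was lost when either dark lincomycin array (adjusted p = 0.139 and 0.128), either red lincomycin array (adjusted p = 0.101 and 0.123) or red replicate 1 (adjusted p = 0.0665) was left out, while its change stayed between 2.08 and 2.36 in these. Related efflux genes lie in the same family, and cross-hybridisation between them was not tested: AT2G04070, a relative, was at 0.28 (adjusted p = 0.373). GSTU25, a tau class glutathione transferase, was at 0.64 and AT5G14730 at 0.56, and both lay past NDB2 at 0.39.

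In the other 6 comparisons limma called 0 of the 12 genes of this list in either direction. Their median change was 0.44 for lincomycin in darkness (4 with an unadjusted p under 0.05, the lowest that of AT2G04050) and 0.23 for lincomycin after red light (2). For red light it was 0.24 without lincomycin (1, AT5G14730) and 0.13 on it (1, AT2G32020), 0.23 for the mean of both media (2) and -0.09 for the interaction (1, AT5G14730). The shares of all probe sets with an unadjusted p under 0.05 were 18.1%, 8.33%, 14.3%, 3.85%, 7.94% and 10.4% in the same order, and 1 of 12 lies below such a share for red light without lincomycin and for the interaction. AOX1A, the alternative oxidase most often used as a marker of this response, and the regulators ANAC013 and ANAC017 could not be matched to a probe set of their own in the supplied annotation, which names no gene for 8730 of the 22746 probe sets, and were not analysed here.

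**Figure D4:**
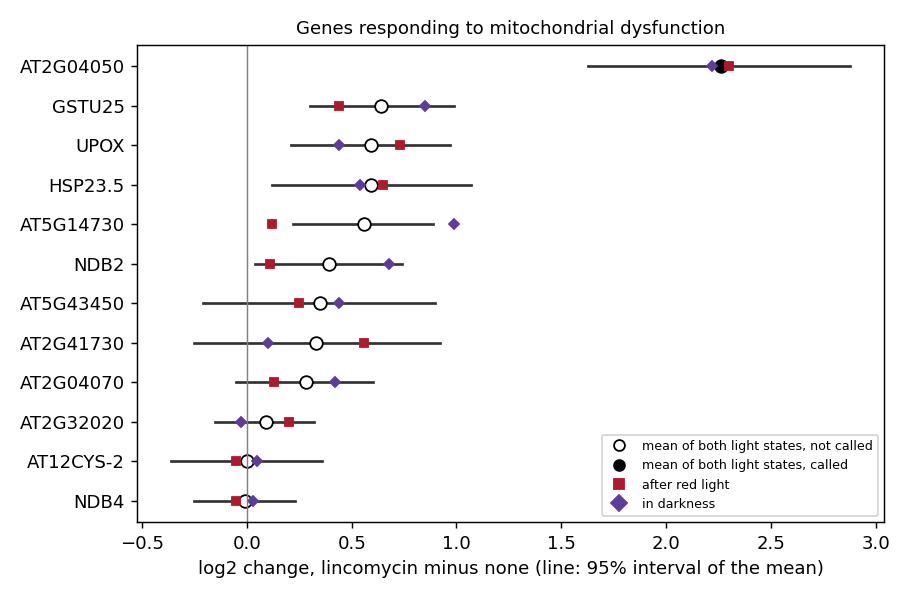
Log2 change on lincomycin for the 12 measured genes of the mitochondrial dysfunction list, as the mean of both light states with its 95% interval (circle and line), after red light (square) and in darkness (diamond). AT2G04050, the 1 called gene, stands at 2.26, NDB2, UPOX and HSP23.5 lie between 0.39 and 0.59, and AT12CYS-2 and NDB4 lie near 0.

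Among the alternative respiratory enzymes, 5 of 16 listed genes were measured, all type II dehydrogenases, and 0 were called in any comparison. NDB3, a close relative of NDB2, ran the other way, with 74.1 and 73.6 in the red lincomycin group and 78.8 and 75.7 in the dark lincomycin group, against 97.2 and 81.8 in the red group and 130 and 112 in the dark group. All its lincomycin arrays lay below all others, a separation downwards that held for 3.99% of all probe sets. The change was -0.46 as the mean of both light states (adjusted p = 0.106) and -0.64 in darkness (adjusted p = 0.0909). As the mean of both light states NDB1 was at 0.22, NDC1, a dehydrogenase also found in plastids, at -0.05, and NDB4 at -0.01. There 2 of the 5 had an unadjusted p under 0.05 (NDB2 and NDB3), as did 16.8% of all probe sets. The median of the 5 was -0.01, and so was that of all probe sets.

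Of the heat shock list, 8 of 24 genes were measured and 0 were called in any comparison. AT5G37670, the small heat shock protein HSP15.7, had the lowest p of the list on lincomycin. It gave 69.9 and 76.8 in the red lincomycin group and 38.8 and 30.3 in the dark lincomycin group, against 14.5 and 39.6 in the red group and 12.2 and 14.1 in the dark group. As with HSP23.5, replicate 2 of the red group stood far above replicate 1 and reached the dark lincomycin arrays. Its mean lincomycin effect was 1.50 (adjusted p = 0.0749) and its light effect 1.10 on lincomycin (an adjusted p that rounds to 1) and 0.87 without it (adjusted p = 0.41). On 3 arrays without lincomycin its signal lay as close to the 25th percentile as that of HSP23.5, and whether it was above background there is not known either. The list as a whole had a median of 0.17 on lincomycin as the mean of both light states. Of its 8 genes, HSP23.5 included, 7 were above 0 (47.2% of all probe sets). An unadjusted p under 0.05 was found for 2 of the 8 (16.8% of all). For red light as the mean of both media the median was 0.28, with 6 of 8 above 0 (47.2% of all). There 3 of the 8, HSP23.5 among them, had an unadjusted p under 0.05 (7.94% of all). AT2G19310 (HSP18.5) had the lowest p there at 0.90 (adjusted p = 0.214), and HSP26.5 (AT1G52560) was at -0.01.

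The remaining lists held few measured genes. The only measured gene of 16 mitochondrial chaperones and proteases was CLPP2, a subunit of the mitochondrial Clp protease, with 273 and 240 in the red lincomycin group and 302 and 280 in the dark lincomycin group, against 190 and 233 in the red group and 168 and 163 in the dark group. All lincomycin arrays were higher, as for 4.35% of all probe sets, the mean effect was 0.55 (adjusted p = 0.078), and like NDB2 it was highest in the dark lincomycin group. Of 15 proteins of the intermembrane space and of copper delivery, 4 were measured and 0 called: AT12CYS-1 (AT5G64400), the relative of AT12CYS-2, was at 0.08 on lincomycin as the mean of both light states, and COX11, an assembly factor of cytochrome c oxidase with the lowest p, at -0.45 (adjusted p = 0.149). Of 21 genes of oxidative stress and scavenging, 5 were measured. For lincomycin in darkness 1 of the 5 was called, beside 0.98% of all probe sets, and none was called in another comparison. It was ZAT10, a zinc finger regulator of stress responses, at 1.01 in darkness (adjusted p = 0.0407). After red light ZAT10 was at 0.12 (interaction -0.89, adjusted p = 0.336). On lincomycin in darkness MDHAR and NQR were at 0.14 and 0.12, and GR1 and PRXIIF at -0.40 and -0.34. The call of ZAT10 was kept under 7 of 14 other settings.

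Profiles over the 8 arrays were compared by the root mean square difference of log2 values, each centred on its own mean, among the 13512 other probe sets with 1 listed gene. NDB2 lay closest to AT1G09620 (0.049), AT5G48960 (0.070) and AT5G04060 (0.081), and its own deviation from a flat line was 0.294. UPOX lay closest to AT1G06830 (0.116), AT1G03320 (0.117) and AT1G54860 (0.137), with 0.390 from flat. HSP23.5 lay closest to Fes1A (AT3G09350, 0.131), a co-chaperone of cytosolic HSP70, then to AT4G27130 (0.144) and AT1G58150 (0.146), with 0.455 from flat.

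Fes1A repeated the array pattern of HSP23.5 at a brighter signal, with 156 and 137 in the red lincomycin group and 107 and 97.0 in the dark lincomycin group, against 82.2 and 126 in the red group and 54.4 and 70.9 in the dark group. Red replicate 2 was again the highest array without lincomycin. AT12CYS-2 lay closest to RALFL32 (0.063), AT2G38240 (0.068) and AT1G61280 (0.070), with only 0.177 from flat. Among themselves the 4 genes lay from 0.372 (NDB2 with AT12CYS-2, and UPOX with HSP23.5) to 0.561 (HSP23.5 with AT12CYS-2) apart. The closest profiles were picked as the smallest of 13512 distances, so the larger values among the 4 genes carry no result. For NDB2 with AT12CYS-2 the distance was also larger than that of NDB2 from a flat line (0.294). These distances take in the array-to-array spread as well as the groups and are given as a description.

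**Figure D5:**
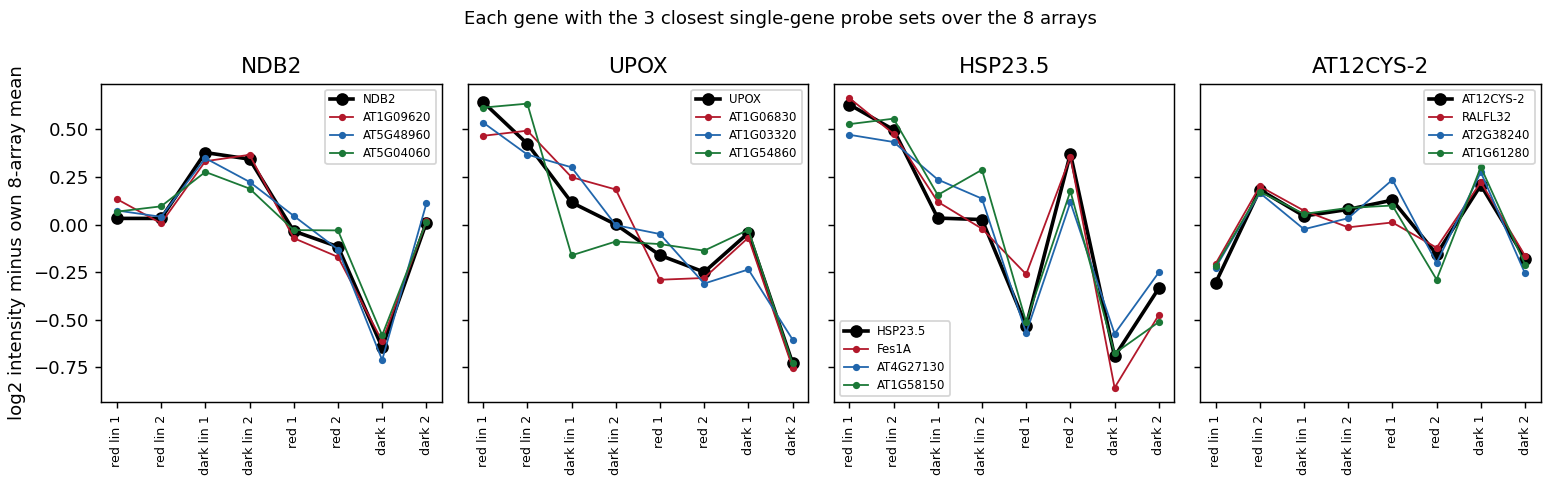
Log2 intensity minus the 8-array mean (y axis) on each array (x axis, lin for lincomycin) for each of the 4 genes (black) and the 3 closest single-gene probe sets (colours); lines only join the points of a probe set. The largest departures of NDB2 and of UPOX fall on different dark arrays, replicate 1 for NDB2 and replicate 2 for UPOX, and replicate 2 of the red group stands above replicate 1 for HSP23.5 and Fes1A.

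The label of light was checked with a marker gene, and markers of tissue were read beside it. IAA29, an auxin-response repressor that phytochrome action lowers, fell by 2.56 after red light as the mean of both media (adjusted p = 0.00206, kept under all 13 other settings). On lincomycin, 2 of the 4 measured shoot and plastid markers were called lower as the mean of both light states. Of all probe sets, 0.897% were called there in either direction. The called markers were PSAE-1 of photosystem I (-1.97, adjusted p = 0.0108) and PORB of chlorophyll synthesis (-0.95, adjusted p = 0.0262). LHCB4.1 (-0.64, adjusted p = 0.0964) and RCA (-0.33, adjusted p = 0.622) were not called. The calls of PSAE-1 and PORB were kept under 9 and 7 of 13 other settings, and lost for both without any 1 of the 4 lincomycin arrays. The 4 markers serve the plastid, whose translation lincomycin blocks. The fall of PSAE-1 and PORB therefore cannot tell less shoot tissue from lower expression in the same tissue. On lincomycin RCA was at -0.02 in darkness and -0.65 after red light, and LHCB4.1 at -0.25 and -1.04. The summed intensity of the 4 markers ran from 2870 to 3850 in the red lincomycin group and from 4220 to 4340 in the dark lincomycin group, against 6500 to 7990 in the red group and 6190 to 7480 in the dark group. Of 6 root markers, 3 were measured and 0 called, and their sum ran from 129 to 167 in the red lincomycin group and from 178 to 261 in the dark lincomycin group, against 193 to 223 in the red group and 158 to 175 in the dark group. The root hair gene EXPA7 was at 1.03 on lincomycin in darkness (adjusted p = 0.0927), where NDB2 was at 0.68, and at -0.54 after red light. Whether the makeup of the tissue had a part in the values of NDB2, UPOX and HSP23.5 was not tested. None of the 6 seed storage markers could be matched to a probe set of its own in that annotation.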

How the data were processed

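Each array has 1 linear intensity per probe set, deposited by the authors and made with RMA per the submitters' processing notes; the software and its version are not given in the sources used here. Log2 was taken of the deposited intensity. The 64 control probe sets among 22810 were not tested. Genes came from the supplied platform annotation (13513 probe sets with 1 gene, 503 with several, 8730 with none), with names updated through RefSeq. Where a gene had several probe sets, the brightest was used.

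Group means were fitted to all 8 arrays with limma 3.58.1 (lmFit, eBayes) in R 4.3.3 (residual degrees of freedom 4, prior 3.19), two-sided, Benjamini-Hochberg over 22746 probe sets, called at an adjusted p under 0.05. The 7 comparisons were the effects of lincomycin and of red light singly, as means, and their interaction. The procedure was also run on simulated data with the same spread in every group. The real groups differed in spread, so that run does not vouch for the calls made here. Other settings were array median shift, quantile normalization, omission of the 6823 dimmest probe sets (30%), trended robust eBayes, a replicate block, only the 4 arrays compared and each array left out. The same settings were run for AT2G04050, ZAT10, IAA29, PSAE-1 and PORB, chosen after seeing the data. Tables and figures used Python 3.11.15, numpy 2.4.6, pandas 2.3.3 and matplotlib 3.10.9. The number of arrays limits the precision.

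The genes and lists were chosen with earlier results of these data known. Besides the 4 genes, the text names up to 3 called genes of a list in each direction, or the lowest p, and the 3 closest profiles. Other list genes, including GSTU25, AT5G14730, AT2G04070, NDB1, NDC1, NDB4, HSP26.5, AT12CYS-1, MDHAR, NQR, GR1, PRXIIF, RCA and LHCB4.1, were added after their values were seen. The planned search of promoters and proteins for motifs was not run, since no sequence was used here.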

Additional observations from a re-analysis of the deposited data

How the results depend on the processing

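With all arrays none of the 28 changes of the 4 genes passed. Of 380 values under other settings, 348 kept direction and call, 4 kept direction and passed, and 28 changed sign, 19 of them for AT12CYS-2. Outside the leave-one-out settings the sign changed 6 times, at values near 0. Under median shift AT12CYS-2 was 0.06 for red light without lincomycin and 0.02 for lincomycin as the mean, and the interaction of HSP23.5 was -0.01. Under quantile normalization AT12CYS-2 was 0.05 and 0.00 in those comparisons, and NDB2 0.02 for red light as the mean. With arrays left out, NDB2 ran from -0.08 to 0.57 for red light without lincomycin, from 0.35 to 1.01 for lincomycin in darkness, from 0.23 to 0.56 for lincomycin as the mean and from -0.21 to 0.12 for red light as the mean. UPOX ran from -0.16 to 0.52 for red light without lincomycin, from -0.05 to 0.63 for the interaction and from 0.42 to 0.76 for lincomycin as the mean. HSP23.5 ran from -0.03 to 0.88, from -0.34 to 0.56 and from 0.37 to 0.82 in the same comparisons. AT12CYS-2 ran from -0.22 to 0.17 for red light without lincomycin, from -0.37 to 0.12 on it, from -0.15 to 0.24 for lincomycin in darkness, from -0.29 to 0.20 after red light, from -0.34 to 0.15 for the interaction, from -0.12 to 0.12 for lincomycin as the mean and from -0.20 to 0.05 for red light as the mean. Same-numbered arrays did not deviate together throughout (correlations from -0.325 to 0.441), which does not decide whether the numbers pair the arrays. Replicate 1 lay above replicate 2 in all 4 groups for UPOX, which held for none of the other genes. With a replicate block the SE of the mean lincomycin effect on UPOX was 0.13, against 0.16 without the block. With a replicate block the 4 genes kept their values and none was called (UPOX adjusted p = 0.121 for lincomycin as the mean). The replicate block left 7 calls among all probe sets for red light without lincomycin (43 in the fit without it), 1 on lincomycin (14), 4 for lincomycin in darkness (223), 1 after red light (6), 119 for lincomycin as the mean (204) and 44 for red light as the mean (68). It ended the calls of ZAT10, PORB and, on lincomycin, IAA29. With only the 4 arrays compared, limma called 0 for red light without lincomycin (1549 with an unadjusted p under 0.05), 150 on it and 0 for lincomycin in darkness (3571). For red light on lincomycin this setting gave narrower SEs than the fit to all arrays. They were 0.12 for UPOX (adjusted p = 0.165), 0.11 for HSP23.5 (adjusted p = 0.101) and 0.11 for NDB2 (adjusted p = 0.227). For red light without lincomycin the SEs were wider, at 0.28 for UPOX, 0.36 for HSP23.5 and 0.28 for NDB2. Median shift gave 96 for red light without lincomycin, 341 for lincomycin in darkness and 18 after red light. Trended robust eBayes gave 108 in darkness and 21 after red light, quantile normalization 1 after red light, and omitting dim probe sets 26. With arrays left out the counts ran from 0 to 1219 for red light without lincomycin, 0 to 28 on it, 0 to 1950 for lincomycin in darkness, 0 to 32 after red light, 0 to 609 for the interaction, 1 to 1106 for lincomycin as the mean and 12 to 222 for red light as the mean. The causes were not tested. Signal over background is not known, which limits HSP23.5 most.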
